A study of Mus musculus with 3 samples.

Results

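The platelet-derived growth factor (PDGF) family was examined, which in the mouse has the ligand genes Pdgfa, Pdgfb, Pdgfc and Pdgfd and the receptor genes Pdgfra and Pdgfrb. The members were taken as every array probe whose RefSeq accession belongs to 1 of these 6 symbols, and they are 6 of the 21153 gene symbols that the array covers. They are represented by 8 probes on 17 spots of each array, since Pdgfra alone was printed 10 times. Testing required that every array had the probe well above background in Cy3, Cy5 or both, a filter that 6 of the 8 probes and 5 of the 6 genes passed. Pdgfd did not pass it.

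RNA from mouse embryoid bodies, which are aggregates of differentiating embryonic stem cells, was compared on 3 two-colour Agilent arrays. Each array set RNA of the Hopx-/- genotype with the Wnt inhibitor XAV939 (12.5 µM) directly against RNA of the Hopx+/- genotype, both at day 8 of a cardiac differentiation. XAV939 blocks tankyrase and so lowers β-catenin, and Hopx encodes a small homeodomain protein of the developing heart. The lines came from blastocysts and were kept on feeder cells. The droplets of the culture held 10% fetal bovine serum. During cardiac differentiation the medium held VEGF (5 ng/ml), bFGF (10 ng/ml), FGF10 (12.5 ng/ml) and ascorbic acid. The labels call the arrays biological replicates but do not say how many lines or clones were used, and the heterozygous label names no inhibitor. Genotype and inhibitor therefore changed together and cannot be told apart.

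PDGF ligands are secreted as disulphide-linked dimers that bring receptor tyrosine kinases together at the cell surface. PDGF-A and PDGF-C signal through the α receptor and PDGF-D mainly through the β receptor, while PDGF-B binds both. The α receptor marks primitive endoderm, cardiac and paraxial mesoderm and many mesenchymal progenitors. The β receptor is known for pericytes and vascular smooth muscle, which endothelial cells recruit with PDGF-B.

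Pdgfra and the ligand genes Pdgfa and Pdgfc fell in the null cultures with inhibitor, while Pdgfrb and Pdgfb, whose product binds both receptors, did not pass the test. Pdgfra was 5.62-fold lower, Pdgfa 3.99-fold lower and Pdgfc 1.82-fold lower (limma, threshold of 0.05 on the p-value adjusted over 14705 tested genes). Pdgfb lay at a log2 ratio of -0.05 ± 0.09 and Pdgfrb at -0.18 ± 0.23 (SD, n = 3 arrays here and below). Of 5 tested members 3 were lower and 0 higher, against 33.0% of all tested genes lower, 31.5% higher and 64.5% called in either direction, so that a fall was common in this comparison. The median log2 ratio was -0.87 over the 5 tested members and -0.01 over all tested genes.

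Directions in what follows are probable, not certain. Per the labels, Cy5 carried the null RNA on every array, yet read that way replicate 3 had a correlation of -0.88 with replicate 1 and -0.91 with replicate 2 (24376 probes), while replicates 1 and 2 stood at 0.96. The sign of replicate 3 was reversed for this reason, as in the authors' deposited values. Hopx, the targeted gene, was then lower on all 3 arrays (-2.71 ± 0.05), although where its probe lies relative to the deletion is not stated. If the opposite direction held, Pdgfra would stand at 2.49, Pdgfa at 2.00, Pdgfc at 0.87, Pdgfrb at 0.18 and Pdgfb at 0.05. With replicate 3 used as labelled, limma called 0 genes (13 higher and 27 lower at an unadjusted p below 0.05), and Pdgfra, Pdgfa and Pdgfc lay at -0.61, -0.65 and -0.34. Array 1 lay on a slide of its own and arrays 2 and 3 shared another. Between 56.6% and 68.0% of probes exceeded background clearly, depending on channel and array, and 0 of the PDGF probes were saturated on any array.

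The promoters of the 3 genes that fell are shown because they moved together and can be compared base by base. They are the RefSeq windows on GRCm38.p6 from 250 bases before to 50 after an annotated start, which the table holds for 4 of the 6 members, Pdgfa with 2 starts. Capitals mark GC boxes, the letters GGGCGG on either strand, a sequence bound by Sp1-type factors.
Pdgfra, chr5:75152001-75152300, + strand: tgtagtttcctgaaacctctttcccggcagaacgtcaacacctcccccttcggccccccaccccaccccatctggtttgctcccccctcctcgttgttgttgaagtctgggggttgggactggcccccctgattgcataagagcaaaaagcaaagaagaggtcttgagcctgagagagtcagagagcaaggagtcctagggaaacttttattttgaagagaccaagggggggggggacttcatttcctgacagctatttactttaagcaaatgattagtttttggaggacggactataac
Pdgfa start 1, chr5:138994895-138995194, - strand: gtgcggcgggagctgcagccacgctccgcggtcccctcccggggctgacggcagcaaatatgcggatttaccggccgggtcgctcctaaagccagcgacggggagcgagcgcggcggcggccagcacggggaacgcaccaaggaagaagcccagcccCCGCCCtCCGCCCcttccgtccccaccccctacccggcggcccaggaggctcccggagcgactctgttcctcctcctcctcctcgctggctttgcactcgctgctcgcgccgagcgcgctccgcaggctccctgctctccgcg
Pdgfa start 2, chr5:138994232-138994531, - strand: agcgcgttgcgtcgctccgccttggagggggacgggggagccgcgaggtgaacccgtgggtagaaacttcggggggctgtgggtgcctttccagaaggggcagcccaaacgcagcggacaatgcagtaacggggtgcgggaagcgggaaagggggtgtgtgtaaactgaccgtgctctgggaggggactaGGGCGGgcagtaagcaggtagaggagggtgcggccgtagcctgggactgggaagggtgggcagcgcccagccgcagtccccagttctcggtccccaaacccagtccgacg
Pdgfc, chr3:81036166-81036465, + strand: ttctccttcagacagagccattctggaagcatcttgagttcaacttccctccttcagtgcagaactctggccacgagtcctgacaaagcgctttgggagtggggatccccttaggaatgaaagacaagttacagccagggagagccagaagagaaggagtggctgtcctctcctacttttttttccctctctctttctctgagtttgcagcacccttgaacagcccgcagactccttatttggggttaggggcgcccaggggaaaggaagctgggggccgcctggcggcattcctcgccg

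The windows of Pdgfa held 2 GC boxes at start 1 and 1 at start 2, and those of Pdgfra and Pdgfc held 0, against 35.7% of the 32851 promoter windows in the table with at least 1. GC content was 73.3% and 67% for Pdgfa, 55% for Pdgfc and 51% for Pdgfra. The windows contained 37 and 24 CpG dinucleotides for Pdgfa, 8 for Pdgfc and 5 for Pdgfra, with a median of 7 over all windows. The TCF/LEF words, CTTTGAA and its variant with a different last base, CTTTGAT, searched on both strands, were in none of these 4 windows and in 8.65% of all. Likewise none held the TATA word TATAAA (13.6% of all) or a GATA word (29.8% of all), counted as AGATAA or the variant ending otherwise, AGATAG, or the same pair beginning differently, TGATAA with its own variant, TGATAG. The genes that fell thus had no listed word in common, and a word in these windows is a description of letters only.

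Pdgfa encodes the A chain, a ligand made by epithelia and by the early epiblast. Its brighter probe gave log2 ratios of -2.06, -1.91 and -2.02 on replicates 1, 2 and 3. The normalized intensity of that probe was 6018, 5986 and 5952 in the heterozygous channel and 1438, 1597 and 1465 in the null channel. Every null value was far below every heterozygous one, and the groups did not overlap. The share of all tested genes without overlap is not given here, so here and below a lack of overlap only describes the probe. The mean log2 ratio was -2.0 ± 0.08 (limma adjusted p = 7.78e-07), and 1.92% of the tested genes lay at or below it. The other probe gave -2.28, -2.03 and -1.73, a mean of -2.01 ± 0.28 (adjusted p = 3.24e-06 over all tested probes, of which 31.4% were lower and 60.2% called in either direction). The 2 Pdgfa probes thus gave nearly the same mean, with a wider spread at the dimmer one.

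Pdgfc encodes a ligand whose growth factor domain is released from an inhibitory CUB domain by proteolysis. Its probe gave log2 ratios of -0.78, -1.03 and -0.79. The normalized intensity was 871, 1103 and 756 in the heterozygous channel and 506, 542 and 436 in the null channel, again without overlap. The mean was -0.87 ± 0.14 (limma adjusted p = 0.000102), the smallest of the 3 falls.

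Pdgfb encodes the B chain, which endothelial cells and megakaryocytes secrete. Its brighter probe gave 0.01, -0.16 and -0.01, with normalized intensities of 1570, 1513 and 1583 in the heterozygous and 1578, 1354 and 1572 in the null channel. The groups overlapped. The mean of -0.05 did not pass (limma adjusted p = 0.657), and its 95% interval ran from -0.28 to 0.17. The sign was positive with marked local backgrounds kept (0.013), with median centring (0.13) and in the authors' values (0.016), none of which passed. The other Pdgfb probe was well above background in each group on only 1 of 3 arrays, was not tested, and read 0.10, 0.02 and -0.12.

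Pdgfd encodes the other CUB-domain ligand, which acts mainly on the β receptor. Its single probe was well above background on 0 of 3 arrays in the heterozygous channel and 1 of 3 in the null channel. The ratios of 0.23, 0.29 and 0.25 are therefore ratios of dim spots, and no fold is given. With no filter on dim probes Pdgfd passed (0.26, limma adjusted p = 0.0363). Its level could not be read at this signal over background.

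**Figure D1:**
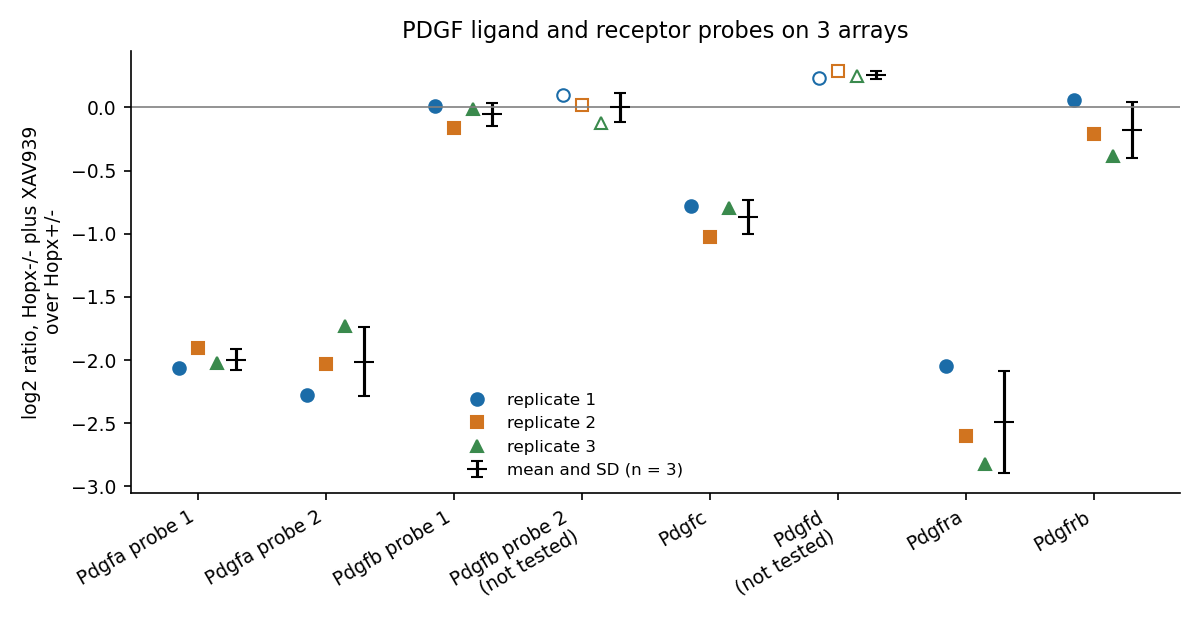
Log2 ratio of null plus XAV939 over heterozygous (y axis) for the 8 probes of the PDGF family, with 1 point per array and the mean and SD beside them; open points are probes that were not tested. Both Pdgfa probes lie near -2.0 and Pdgfra near -2.5, while Pdgfb and Pdgfrb scatter around or just below 0.

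Pdgfra encodes the α receptor. Its log2 ratios were -2.05 on replicate 1, -2.60 on replicate 2 and -2.82 on replicate 3. The normalized intensity in the heterozygous channel was 2188, 2232 and 2218, and in the null channel it was 530, 368 and 313. After this scaling between arrays the heterozygous values were nearly equal and the null values differed, and the groups did not overlap. The mean was -2.49 ± 0.40 (limma adjusted p = 1.84e-06), and 0.952% of the tested genes lay at or below it.

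The 10 Pdgfra spots give the technical error within an array. On replicate 1 the spot ratios ran from -2.13 to -1.86 (SD 0.083), on replicate 2 from -2.77 to -2.48 (SD 0.085) and on replicate 3 from -3.00 to -2.59 (SD 0.15). Replicate 1 thus stood apart from both other arrays at every spot, while the ranges of replicates 2 and 3 overlapped. The median scanner signal of the spots before normalization was 1477, 1984 and 2204 in the heterozygous channel and 615, 523 and 189 in the null channel. Before scaling, both groups thus differed between arrays. With replicate 3 reversed, the null signal was Cy5 on replicates 1 and 2 and Cy3 on replicate 3. Dye and array therefore cannot be told apart in these scanner signals. Without replicate 1, which is also the mean within the slide shared by replicates 2 and 3, the ratio was -2.71.

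**Figure D2:**
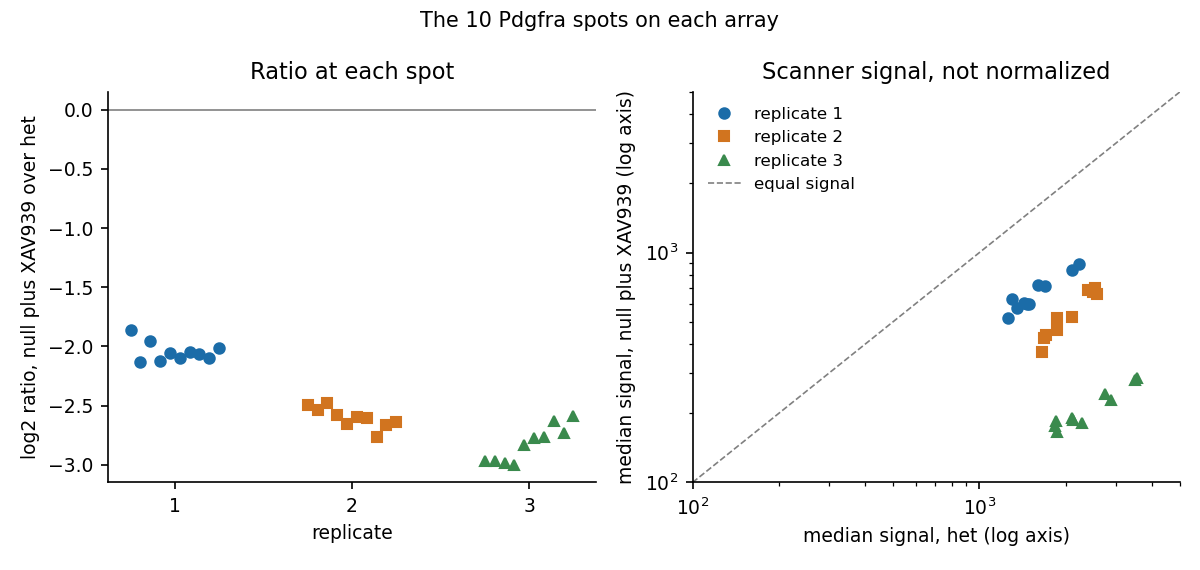
The left panel shows the log2 ratio (y axis) at each of the 10 Pdgfra spots on replicates 1, 2 and 3, with spots ordered by feature number, and the right panel their scanner signals in both channels on log axes with a dashed line of equal signal. All spots lie below the line, and those of replicate 1 are closest to it. Null signals are Cy5 on replicates 1 and 2 and Cy3 on replicate 3, so scanner signals also differ by dye.

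Pdgfrb encodes the β receptor. Its probe gave 0.06, -0.21 and -0.39, with normalized intensities of 1689, 2022 and 1717 in the heterozygous and 1761, 1747 and 1314 in the null channel. The arrays differed in sign and the groups overlapped. The mean of -0.18 did not pass (limma adjusted p = 0.203), with a 95% interval from -0.44 to 0.08. It passed with a dye effect fitted beside the ratio (-0.23, adjusted p = 0.0318, over the alternatives from 0.0318 to 0.969, leaving aside the use of replicate 3 as labelled), a model chosen after the data were seen, and with median centring it lay at 0.018. A change of the size seen for Pdgfra lies outside the interval of Pdgfrb.

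The receptor genes differed from each other within every array. The log2 ratio of Pdgfra minus that of Pdgfrb was -2.11, -2.39 and -2.44, a mean difference of -2.31 ± 0.18. Between the ligand genes, Pdgfa lay below Pdgfb by a mean of -1.94 ± 0.17 and below Pdgfc by -1.13 ± 0.22, on all 3 arrays. Each of these differences had an exact two-sided sign-flip p = 0.25, the smallest that 3 arrays allow, and 0.333 adjusted over the 4 pairs compared. Pdgfra and Pdgfa differed by -0.49 ± 0.45, with replicate 1 at 0.02 (exact p = 0.5). In the order of mean ratios, Pdgfra and Pdgfa are thus neighbours whose order was not the same on every array, as are Pdgfrb and Pdgfb.

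**Figure D3:**
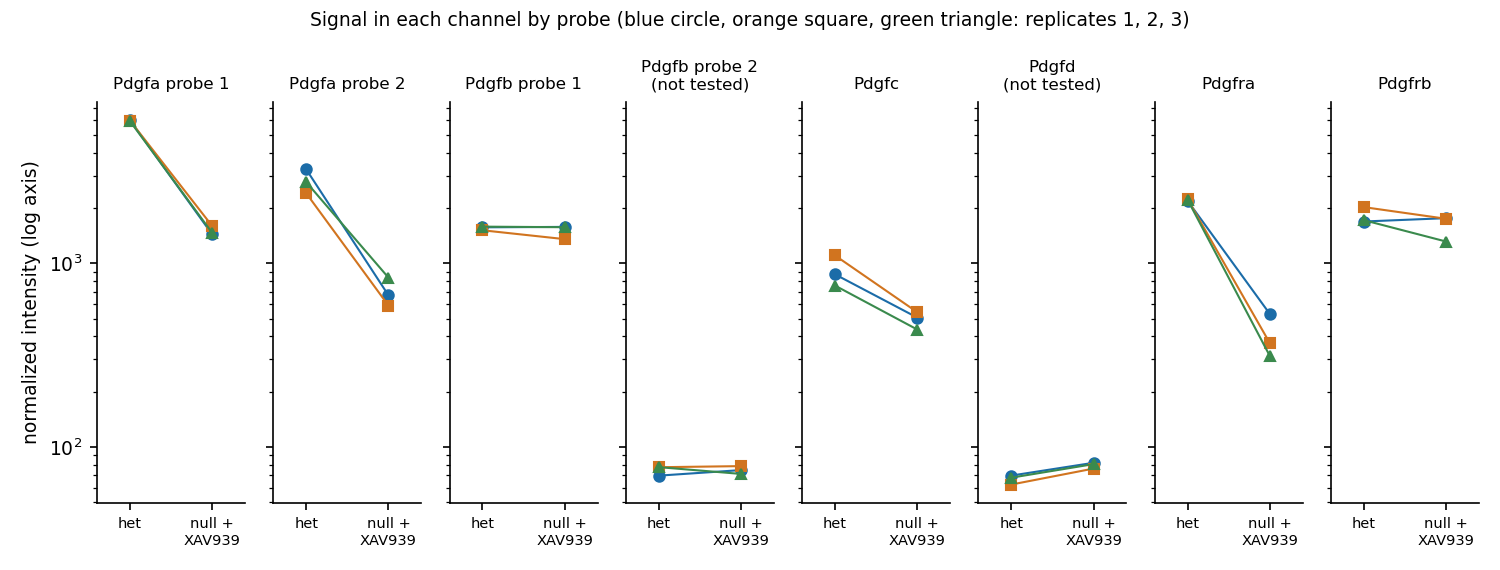
Normalized intensity (log axis) of each PDGF probe in the heterozygous and the null plus XAV939 channel, with 1 line per array; intensities are not comparable between probes. The lines fall on all arrays for both Pdgfa probes, Pdgfc and Pdgfra, cross for Pdgfb, and stay near background for Pdgfd and the dim Pdgfb probe.

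Genes that resemble each member over the 3 arrays were sought by the Euclidean distance between their log2 ratios, among 14047 genes with a proper name. For Pdgfra the nearest were the noncoding RNA gene Airn (distance 0.13), the splicing regulator gene Mbnl2 (0.22) and the complement gene Cfb (0.25), and only 1 gene lay within 0.2. For Pdgfa they were Rab11fip5 (0.10), the colipase gene Clps (0.10) and Ppp1r3d (0.11), with 18 genes within 0.2. For Pdgfc they were the coatomer gene Copb1 (0.034), the sodium-proton exchanger gene Slc9a3 (0.041) and Plod3 (0.059), with 117 within 0.2. Pdgfb had 457 genes within 0.2, led by Gstm7 (0.012), Rnft2 (0.024) and Ift88 (0.035), and Pdgfrb had 189, led by Cramp1l (0.024), Dcbld2 (0.045) and Yes1 (0.048), a kinase of the Src family. The number of close genes was smallest for the members with the largest falls, where few tested genes lay at all. Only 0.952% of tested genes lay at or below Pdgfra and 1.92% at or below Pdgfa, so a fixed distance holds fewer genes there. With 3 arrays of 1 comparison this likeness is a description of size and spread only.

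Genes for proteins that cut, hold or bind PDGF ligands outside the cell were lower more often than higher. Of 10 tested genes 7 were lower and 1 higher, with a median log2 ratio of -0.61. Over all tested genes 33.0% were lower and 31.5% higher, shares to be read beside this count and those of every list below. Sparc, a matrix protein that binds PDGF-B, had a log2 ratio of -2.26 ± 0.17 and was lower, with 1 of 3 arrays saturated in the heterozygous channel. The mean over its probes was -1.16. Plat, tissue plasminogen activator, which cuts PDGF-C free of its CUB domain, fell with Pdgfc (-1.12 ± 0.21), as did Lrp1 (-0.99 ± 0.09), a scavenger receptor that associates with the β receptor. Pcsk6, a proprotein convertase, rose (0.58 ± 0.27), but its call was lost when marked local backgrounds were kept and with median centring. The list's lower count was 4 with median centring.

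Of 27 tested genes for proteins that act directly below the receptors, 11 were lower and 6 higher, with a median of -0.12. The share called was near the 64.5% of all tested genes, so these counts show nothing particular to the list. Stat3 (-1.52 ± 0.21) and Stat5b (-1.04 ± 0.20), transcription factors that receptor kinases activate, and Pik3cb (-0.99 ± 0.17), a catalytic subunit of phosphoinositide 3-kinase, fell most. The small GTPase gene Hras (0.65 ± 0.10) and the kinase subunit gene Pik3r2 (0.49 ± 0.34) were among those that rose, Pik3r2 not with marked backgrounds kept and at 0.30 without replicate 3. The lower count was 5 with marked backgrounds kept, 7 with the Feature Extraction log ratio and 5 with median centring.

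Genes that end receptor signalling included 5 that rose and 3 that fell of 10, with a median of 0.24. Over all tested genes 31.5% were higher and 33.0% lower. The tyrosine phosphatase gene Ptpn1 (0.96 ± 0.33) and the Ras GTPase activator gene Rasa1 (0.62 ± 0.26) rose. Socs3 (-1.02 ± 0.01), a feedback inhibitor of cytokine signalling, and the ubiquitin ligase gene Cblb (-0.66 ± 0.15) fell, and so did the phosphatase gene Acp1 (-0.39 ± 0.24). Of these 5, Socs3 passed under every alternative with replicate 3 turned, whereas Acp1 did not pass without replicate 1 (-0.33) or replicate 2 (-0.31), among others. Ptpn1, Rasa1 and Cblb did not pass with marked backgrounds kept, nor Cblb with median centring, and with the mean over probes Ptpn1 lay at 0.46 and Cblb at -0.42. Without replicate 1, or without replicate 2, or in the authors' values, 3 of these genes were higher, and 1 with marked backgrounds kept. The count of lower genes was 1 with marked backgrounds kept and 1 with median centring.

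Receptors and ligands related to PDGF by structure were the class III receptor kinases and the VEGF branch. Of 13 tested genes 7 were lower and 2 higher, with a median of -0.53. Shares over all tested genes were 33.0% lower, 31.5% higher and 64.5% called in either direction. Csf1r, the macrophage colony-stimulating factor receptor, was lower (-2.55 ± 0.25), at -1.21 with the mean over its probes. Kitl, the ligand of Kit (-1.74 ± 0.37), and Vegfa (-1.55 ± 0.43) fell as well, Kitl at -0.87 with marked backgrounds kept and -2.65 with the Feature Extraction log ratio. Vegfd (0.57 ± 0.10) and Kdr (0.53 ± 0.27), the main VEGF receptor of endothelium, rose, but Vegfd did not pass with marked backgrounds kept or median centring, and Kdr not without replicate 1 (0.37, against 0.53) or with the mean over probes. The lower count was 4 with median centring. Genes first known as rapidly induced by PDGF or serum in fibroblasts included 4 higher and 4 lower of 13, with a median of 0.09, shares near the 31.5% higher and 33.0% lower of all tested genes. Fos (-1.09 ± 0.19), Nr4a1 (-0.81 ± 0.04) and Ier3 (-0.69 ± 0.34) fell, and the chemokine gene Ccl2 (0.72 ± 0.13) and Ier2 (0.68 ± 0.19) rose. The chemokine gene Ccl7 entered the test through the null channel, being well above background in the heterozygous channel on 1 of 3 arrays. Its ratio of 0.48 ± 0.14 passed but ran from 0.25 to 1.99 over the settings, and it was not tested where both channels had to exceed background. Ccl2, Ier2, Ccl7 and Fos did not pass with marked backgrounds kept. Ccl7 did not pass with median centring or in the authors' values either, and Nr4a1 with median centring and Ier3 in the authors' values did not pass. The lower count of this list was 2 with marked backgrounds kept and 2 with median centring, and its higher count 0, 2 and 2 with marked backgrounds kept, median centring and the authors' values.

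**Figure D4:**
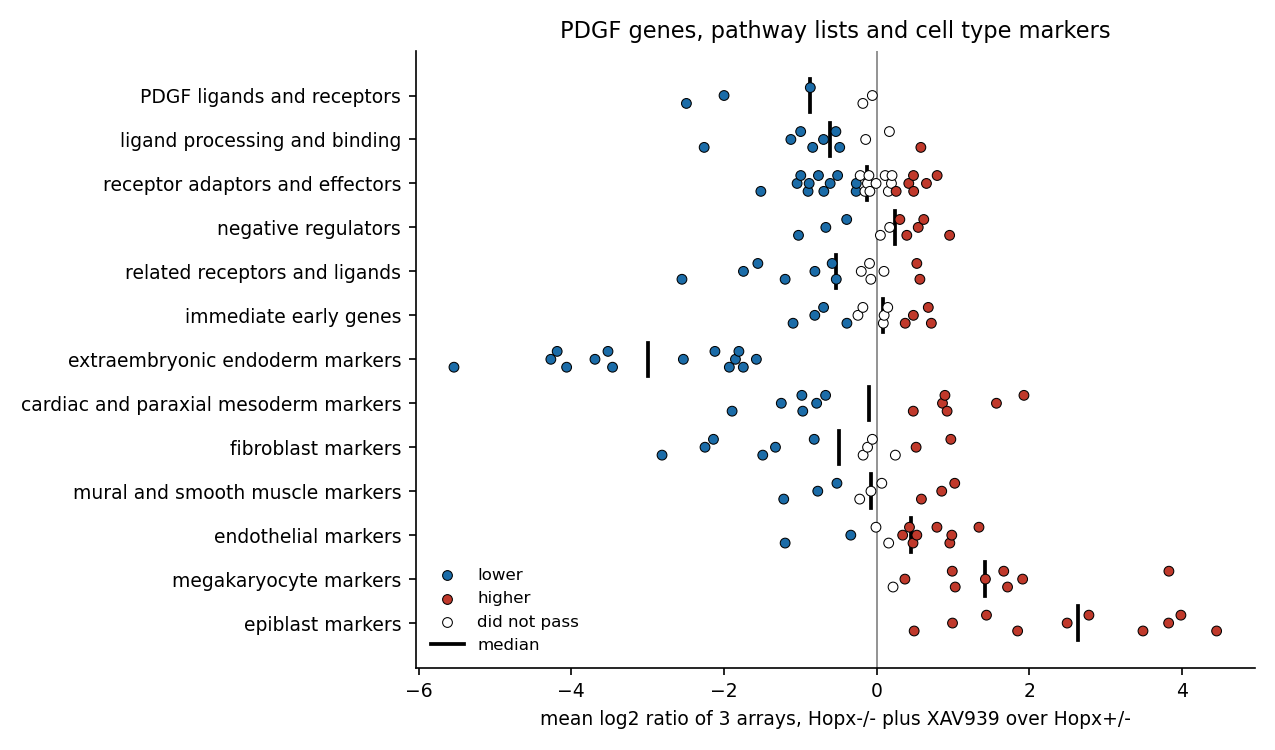
Mean log2 ratio of null plus XAV939 over heterozygous (x axis) for each tested gene of the PDGF family, of 5 related lists and of 7 sets of cell type markers, coloured by limma's call at an adjusted p below 0.05, with a bar at each median. The PDGF family median of -0.87 lies above that of extraembryonic endoderm markers (-2.99) and below those of all other lists. The nearest of these is ligand processing and binding (-0.61).

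Markers of extraembryonic endoderm were all lower, as Pdgfra was, while fibroblast and mesoderm markers were mixed. These lists were taken for cell types linked to the α receptor, and not every gene in them marks cells that carry it. In RNA of whole cultures, fewer cells of a type and less RNA per cell cannot be told apart. The 14 extraembryonic endoderm markers were led by Cubn (-5.54 ± 0.61), Foxa2 (-4.27 ± 0.14) and Ttr (-4.18 ± 0.18). Their summed intensity was 242140 to 248670 in the heterozygous channel and 28084 to 47016 in the null channel. Such sums weigh bright probes most. Fibroblast markers were lower for 6 and higher for 2 of 12, against 33.0% lower and 31.5% higher of all tested genes. The sums of the fibroblast markers were 41453 to 57216 in the heterozygous channel and 20843 to 31459 in the null channel. Col1a1 (-2.81 ± 0.38), Fbln1 (-2.25 ± 0.35) and Postn (-2.14 ± 0.49) fell and Thy1 (0.97 ± 0.06) and Prrx1 (0.52 ± 0.16) rose, Prrx1 not with marked backgrounds kept, median centring or the authors' values. The part of these cells in the fall of Pdgfra was not tested.

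Cardiac and paraxial mesoderm markers, by contrast, were split, with 6 lower and 6 higher of 12 tested. Isl1 (-1.89 ± 0.05), Hand1 (-1.25 ± 0.37) and Nkx2-5 (-0.98 ± 0.23), genes of cardiac progenitors, fell. The forkhead genes Foxc2 (1.57 ± 0.17) and Foxc1 (0.93 ± 0.08) and the somite gene Meox1 rose. Meox1 was well above background on 0 of 3 arrays in the heterozygous channel, and under the reported processing it was at least 3.77-fold higher. That bound does not hold across settings, over which its log2 ratio ran from 0.89 to 4.79. The cardiac genes Hand2 (-0.78 ± 0.35) and Tbx5 (-0.67 ± 0.24) fell too, and the paraxial genes Tcf15 (0.90 ± 0.23) and Pax3 (0.48 ± 0.17) rose. The calls of Hand2, Tbx5, Tcf15 and Pax3 were lost with marked backgrounds kept. The directions thus followed lineage for most of these genes but not all. The paraxial gene Tbx6 was lower (-0.97 ± 0.03). The early cardiac mesoderm gene Mesp1 was higher (0.86 ± 0.18, well above background in the heterozygous channel on 1 of 3 arrays). Hand2, Tbx5, Tcf15, Pax3, Tbx6 and Mesp1 were chosen after their values were seen. Summed intensity was 14254 to 15335 in the heterozygous and 7098 to 9358 in the null channel. Isl1 and Nkx2-5 were well above background in both channels on all 3 arrays, so cardiac markers were present in both groups. With marked backgrounds kept 3 were lower and 2 higher, Meox1 not among them, and Isl1 lay at -1.21 and Foxc2 at 0.81. Foxc2 was at 2.52 with the Feature Extraction log ratio.

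Epiblast markers, which in the embryo accompany Pdgfa, were higher for 10 of 10, opposite to Pdgfa itself. Pou3f1 (4.46 ± 0.28), Fgf5 (3.99 ± 0.40) and Dnmt3b (3.83 ± 0.16) led them, and the summed intensity was 13427 to 18355 in the heterozygous and 99454 to 132600 in the null channel. A fall of Pdgfa was thus measured beside a rise of these markers on all 3 arrays, and their relation was not tested.

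Beside Pdgfb, which did not pass, stand the markers of cells known to secrete PDGF-B. Endothelial markers were higher for 8 and lower for 2 of 12, 2 of which, Kdr and Flt1, are also in the list of related receptors. Cdh5 (1.34 ± 0.24), Cldn5 (0.99 ± 0.65, and 0.64 without replicate 3) and Emcn (0.96 ± 0.19) rose, and Flt1 (-1.20 ± 0.18) and Tek (-0.34 ± 0.28) fell, Tek not without replicate 2 (-0.30) or replicate 3 (-0.22), among others. Their summed intensity was 14472 to 15620 in the heterozygous and 13528 to 16077 in the null channel. Without replicate 1, with median centring or in the authors' values, 5 endothelial markers were higher, and 3 with marked backgrounds kept, when Cldn5 and Emcn did not pass. Without replicate 2, or without replicate 3, 1 was lower. Megakaryocyte markers were higher for 8 of 9 tested, 2 of which, Ppbp and Gp9, entered the test through the null channel (well above background in the heterozygous channel on 0 and 1 of 3 arrays). Where both channels had to exceed background 6 were higher. The summed intensity was 2491 to 2521 in the heterozygous and 7163 to 15183 in the null channel. Pf4 (3.83 ± 0.73), Treml1 (1.91 ± 0.63) and Gp1ba (1.72 ± 0.36) led them, and 2 were higher with marked backgrounds kept, Gp1ba not among them and Treml1 at 1.0.

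Mural and smooth muscle markers, of cells known for the β receptor, were higher for 3 and lower for 3 of 9 tested, shares near the 31.5% and 33.0% of all tested genes, and their relation to Pdgfrb was not tested. Desmin, Des (-1.22 ± 0.31), and the pericyte gene Rgs5 (-0.77 ± 0.29) fell, as did Acta2 (-0.52 ± 0.25, saturated in the null channel on 1 array), and the calponin gene Cnn1 (1.03 ± 0.25) and Tagln (0.59 ± 0.03) rose. Abcc9 read 1.81-fold higher under the reported processing, with 0 of 3 arrays well above background in the heterozygous channel. Its log2 ratio ran from 0.31 to 3.34 over the settings. The sums were 106980 to 111740 in the heterozygous and 101590 to 119120 in the null channel. Rgs5 and Acta2 did not pass with median centring, nor Rgs5 and Abcc9 with marked backgrounds kept, where Des lay at -0.64, and the lower count was 1 with median centring and 5 with a dye term.

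The calls of the PDGF family changed little with the processing as long as replicate 3 was turned. Over 13 other settings Pdgfra ran from -2.71 to -2.06, Pdgfa from -2.04 to -1.76 and Pdgfc from -0.92 to -0.62, and each passed in all of them, with the highest limma adjusted p at 0.0108, 0.00265 and 0.0304. Pdgfb passed in none of the settings and Pdgfrb in 1. The authors' deposited table gave means of -2.28 for Pdgfra, -1.98 and -1.87 for the Pdgfa probes, -0.82 for Pdgfc, -0.14 for Pdgfrb and 0.016 for Pdgfb.

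**Figure D5:**
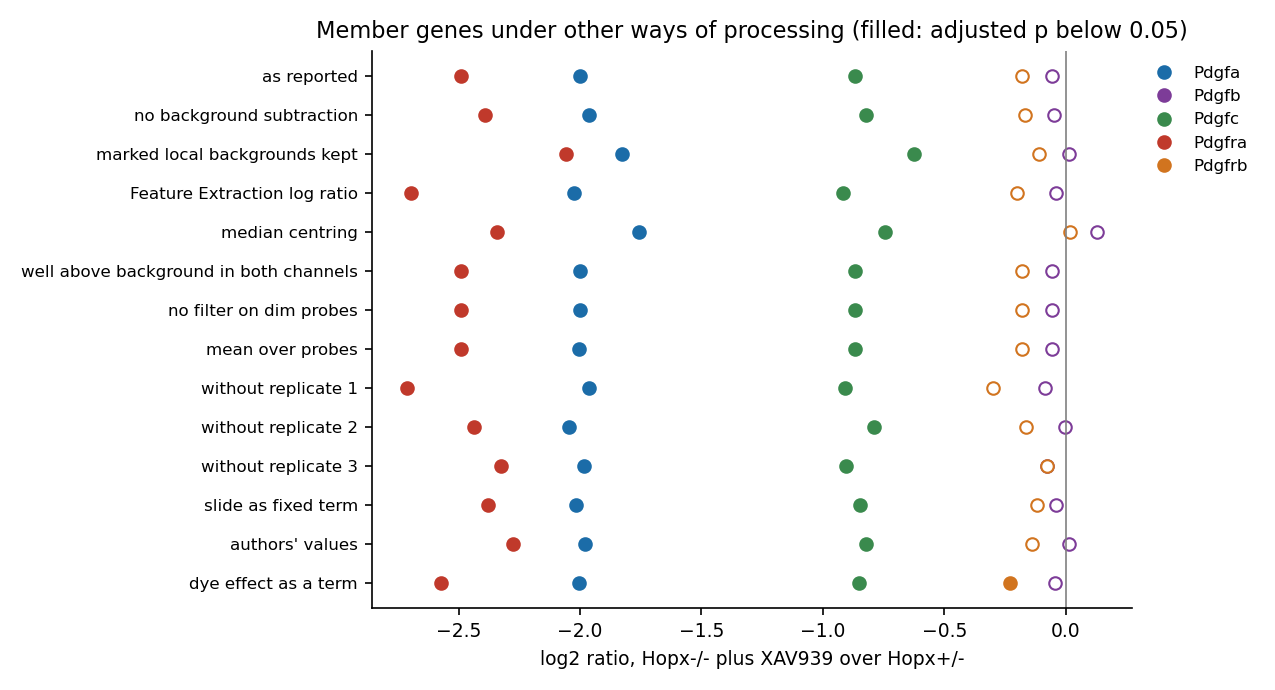
Log2 ratio (x axis) of the 5 tested PDGF genes under the reported processing and 13 other settings (rows), filled where limma's adjusted p was below 0.05. Pdgfra, Pdgfa and Pdgfc stay below 0 and filled in every row, and Pdgfrb is filled only with a dye term.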

How the data were processed

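The spot and local background signals were deposited as median pixel intensity in Cy3 and Cy5. Agilent Feature Extraction was the authors' software (11.5.1.1 per the file headers, 8.5.1.1 per the submitters' processing notes), which also gave the deposited log10 ratio and 0 or 1 marks, another (other) kind of value. The deposited log2 values of the authors are log ratios judging from their slopes of 0.688, 0.799 and -0.797 on the scanner ratios (column medians 0.085, -0.08 and 0.053), with centring and exact normalization not given in the sources used here.

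Signals were corrected with normexp (offset 50) with any local background marked as an outlier set to the median of the unmarked ones in its channel, and normalized by loess within arrays. Outlier spots were left out and spots of a probe averaged. Intensities per channel were also scaled between arrays (Aquantile). Of 39429 probes 28025 had 1 symbol through RefSeq accessions. The brightest tested probe stood for its gene. Limma 3.58.1 (R 4.3.3) tested the mean log2 ratio against 0 with Benjamini-Hochberg adjustment (total degrees of freedom 8.65, prior 6.65). The scripts were tested on simulated data. Precision is limited by having 3 arrays. The p-values measure spread between these arrays only, with that of each gene drawn toward the spread of all tested genes.

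Members and lists were chosen with earlier results of these data known. Named genes were all members and, in each list, up to 3 called higher and 3 called lower with 1 sign on all arrays. Some genes that this rule names are not reported here.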

Additional observations from a re-analysis of the deposited data

How the results depend on the processing

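Pdgfra, Pdgfa and Pdgfc kept direction and call under every alternative but 2. With replicate 3 as labelled they lay at -0.61, -0.65 and -0.34 and did not pass, Pdgfrb lay at 0.079, and 0 genes were called in any list or in all. With every sign turned Pdgfra, Pdgfa, Pdgfc, Pdgfrb, Pdgfb and Hopx stood at 2.49, 2.00, 0.87, 0.18, 0.054 and 2.71, and 32 genes of the pathway lists were higher and 18 lower (18 and 32 as reported). Pdgfb turned positive with marked local backgrounds kept (0.013), with median centring (0.13) and in the authors' values (0.016), and Pdgfrb with median centring (0.018). Pdgfrb passed with a dye term (-0.23, adjusted p = 0.0318), an alternative added after the data were seen, as was the slide as a fixed term. With marked backgrounds kept 2664 of all tested genes were higher and 2257 lower (4635 and 4849 as reported), as were 6 and 18 pathway genes, and 20 marker genes were higher (37 as reported). With median centring, which shifted the median gene by 0.13, the counts were 3034 and 2019 (60% of calls higher against 48.9%), and 10 and 16 for pathway genes. The cause of these differences was not tested. Leaving out each array in turn gave Pdgfra from -2.71 to -2.32, Pdgfa from -2.04 to -1.96, Pdgfc from -0.91 to -0.79, Pdgfrb from -0.30 to -0.075 and Pdgfb from -0.085 to -0.0013, and counts of all genes from 3505 to 5278 higher and 3711 to 5340 lower. Normexp on mean spot signals was not run, since the columns used here hold medians, and the slide as a random block was not run, since its correlation could not be estimated from 3 arrays. No paired analysis was possible because the 3 arrays form a single group and each ratio is already taken within an array. Pdgfd and 1 Pdgfb probe were limited by signal over background.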
